A study of Homo sapiens with 6 samples.

Results

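The aminoacyl-tRNA synthetases are the enzymes that load amino acids onto tRNAs, and their genes were followed here through a low pre-dose of camptothecin. The members were the protein-coding genes whose symbol is an amino acid letter followed by ARS1 or ARS2, together with EPRS1 and the scaffold genes AIMP1, AIMP2 and EEF1E1. These came to 38 of the 13696 distinct genes in the deposited table, with 18 cytosolic synthetases (EPRS1 and names ending in 1), 17 mitochondrial synthetases (names ending in 2) and 3 scaffold proteins. The choice went by symbol and not by a measured value, although earlier results of these data were known when it was made. FARSA and FARSB, the subunits of the cytosolic phenylalanine enzyme, have other names and are given with the neighbouring genes of the pathway.

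The cells were of the line hTERT RPE-1, which derives from human retinal pigment epithelium and was immortalised with telomerase. In the pre-dose group, camptothecin was given at 25 nM for 1 h and removed, and cells were harvested 24 h later (3 libraries). The untreated group had no drug and the same line and medium (3 libraries). Camptothecin traps topoisomerase 1 on DNA, and the series title concerns cullin 3 and adaptation to such inhibitors. All 6 libraries came from a single line, and the labels do not say whether replicates were separate cultures, and the p-values therefore reflect the spread among these libraries alone, which may be technical.

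Most synthetases recognise a single amino acid and the matching tRNAs, while EPRS1 serves both glutamate and proline. Animal cells keep separate nuclear genes for the cytosolic and the mitochondrial enzyme of most amino acids, while GARS1 and KARS1 each supply both compartments. Several cytosolic enzymes sit in a large multi-synthetase complex held together by AIMP1, AIMP2 and EEF1E1, and the others act outside it. Many cytosolic synthetase genes are known targets of ATF4, the transcription factor of the amino acid response, which is switched on when uncharged tRNA activates the kinase GCN2.

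Levels are given as CPM, which scales each count to a total for its library, and the totals implied by the deposited values were 26336942 to 31780392. Over the genes of the table, CPM summed to 993377 in pre-dose replicate 2 and to 1009238 in untreated replicate 1. The latter is more than a whole library, so the implied totals can include a scaling factor and need not be read counts. Differences are pre-dose minus untreated of log2(CPM + 1), a scale that makes changes of low genes look smaller than they are. All 38 members passed the filter of a mean of at least 1 CPM, which kept 13616 genes. The replicate 1 libraries of both groups stood apart: with the treatment in a limma-trend model, 20.3% of genes were higher and 20.6% lower in replicate 1 than in replicates 2 and 3 (adjusted p under 0.05). As a check of the treatment, the p53 target CDKN1A, which encodes the cell cycle inhibitor p21, had 217, 574 and 472 CPM in pre-dose replicates 1, 2 and 3, against 162, 229 and 233 CPM in untreated replicates 1, 2 and 3. Of the retinal pigment epithelium markers RPE65, RLBP1, PMEL and TYR had no row in the table used here, and BEST1, MITF, KRT8, KRT18, PAX6 and OTX2 summed to 1407 to 1452 CPM in pre-dose and 1412 to 1553 CPM in untreated libraries. Lists of keratinocyte, blood, neuronal and mesenchymal markers had 0 of 3, 1 of 4, 2 of 4 and 3 of 4 members with a row. The mesenchymal ones (COL1A1, VIM and THY1) summed to 9752 to 11650 CPM in pre-dose and 9777 to 12000 CPM in untreated libraries. The neuronal ones (SNAP25 and TUBB3) summed to 257 to 375 CPM in pre-dose and 273 to 401 CPM in untreated libraries, and the blood marker HBB had 13.7 to 16.1 CPM in pre-dose and 17.2 to 19.0 CPM in untreated libraries. In bulk RNA, fewer cells in a state and less RNA per cell cannot be told apart.

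The estimated differences of the synthetase genes were small. The fit without a block called no gene at all, CDKN1A with a difference of 0.92 included, so a lack of calls does not show that levels were unchanged. In limma-trend, 0 of 38 members passed an adjusted p of 0.05, where 0.0% of all genes tested did, and 0 of 38 had an unadjusted p under 0.05, against 2.06% of all genes. Their adjusted p was 1.00 throughout. The differences ran from -0.16 for YARS1 to 0.07 for WARS2, with a median of -0.02, and the median over all genes tested was -0.0013. The 95% intervals of the 18 cytosolic enzymes all lay between -0.39 and 0.21. Those of the mitochondrial enzymes reached from -0.54 to 0.36, and those of the scaffold genes from -0.63 to 0.43. Limma-voom on estimated counts also called 0 members, as did voom with library quality weights, which called 0.793% of all genes, and limma-trend blocked on replicate number.

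**Figure D1:**
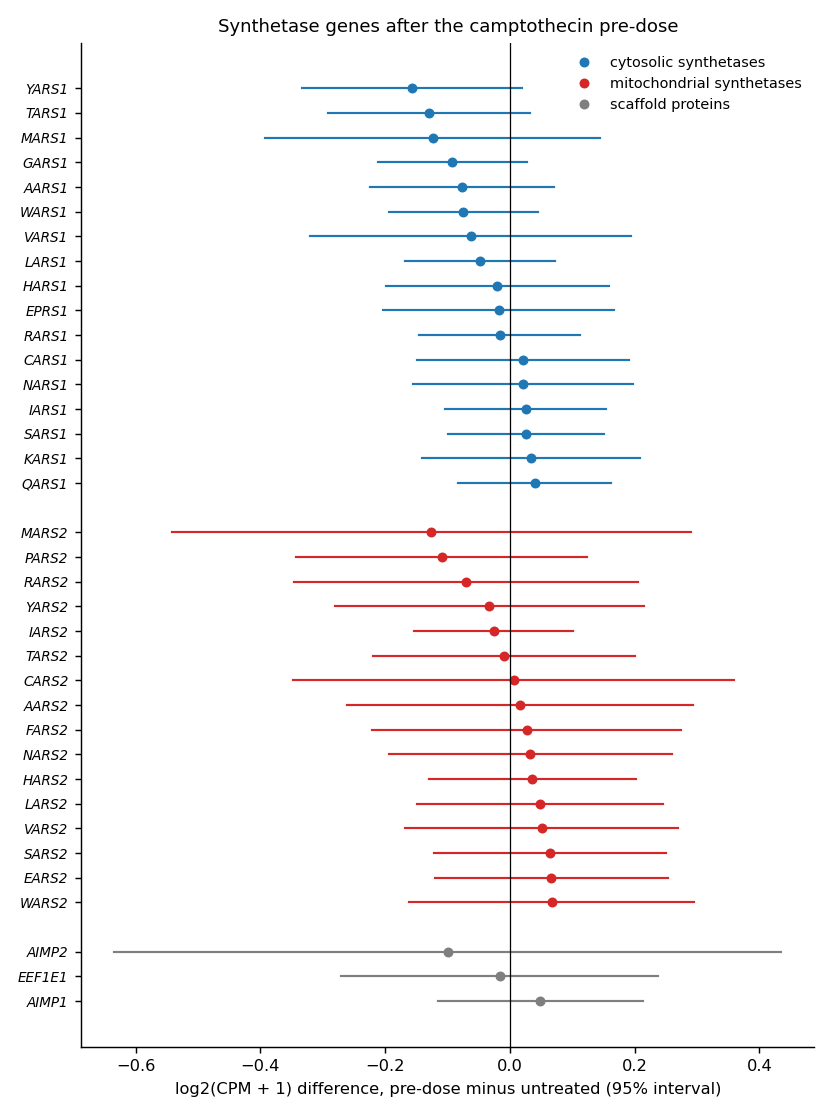
Difference in log2(CPM + 1), pre-dose minus untreated, for 36 of the 38 members (points, with 95% intervals of limma-trend as bars), in rows by class and ordered by size within it. All bars cross 0, and the points run from -0.16 for YARS1 to 0.07 for WARS2.

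Among the cytosolic enzymes the lowest difference was that of YARS1, the tyrosine enzyme (chromosome 1, 32775237 to 32818153, minus strand, GRCh38). It had 128, 114 and 108 CPM in pre-dose replicates 1, 2 and 3, against 134, 129.5 and 125 CPM in untreated replicates 1, 2 and 3. The groups overlapped only through pre-dose replicate 1, which lay above untreated replicate 3. The means were 116.5 ± 10.3 CPM in pre-dose and 129.7 ± 4.51 CPM in untreated libraries (SD, n = 3 each), and the difference was -0.16 with a 95% interval of -0.33 to 0.02 (unadjusted p = 0.0741, limma-trend). YARS1 was the only member past an adjusted p of 0.05 in the authors' deposited table, where 3.05% of all genes were. That table gave it a log2 fold change of -0.21 when turned to pre-dose minus untreated (adjusted p = 0.0409). It also fell in limma-trend on replicates 2 and 3 alone, by 0.20 on the log2 scale (adjusted p = 0.0163), where 6.36% of all genes were called. Exons of YARS1 share 396 bases, 12.2% of its exon length, with S100PBP on the opposite strand, and the protocol in the labels names no step that marks strand. S100PBP had 24.4 CPM in pre-dose and 24.9 CPM in untreated libraries, a difference of -0.03.

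TARS1, the threonine enzyme, had 119.9, 105 and 110.1 CPM in pre-dose replicates 1, 2 and 3, against 127, 117 and 122.5 CPM in untreated replicates 1, 2 and 3. Each pre-dose library was below the untreated library of the same number, although pre-dose replicate 1 was above untreated replicate 2. The difference was -0.13 with an interval of -0.29 to 0.03 (unadjusted p = 0.102, limma-trend). GARS1, the glycine enzyme of both compartments, had 142, 147 and 148 CPM in pre-dose libraries, against 153, 154 and 158.5 CPM in untreated libraries. Its groups did not overlap, and the difference was -0.09 with an interval of -0.21 to 0.03. WARS1, the tryptophan enzyme, which interferon is known to induce, had 95.8, 94.7 and 93.5 CPM in pre-dose libraries, against 99.7, 98.2 and 101.5 CPM in untreated libraries. These groups did not overlap either, with a difference of -0.07 and an interval of -0.19 to 0.04. AARS1, the alanine enzyme, had 149, 138 and 137 CPM in pre-dose libraries, against 158, 145 and 146 CPM in untreated libraries. Here the groups overlapped, and the difference within same-numbered pairs was -0.08, -0.07 and -0.09.

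Pre-dose and untreated values did not overlap for 3 of 18 cytosolic enzymes, GARS1, WARS1 and LARS1 (the leucine enzyme), all with the pre-dose libraries lower. Over all genes tested, 3.19% did so in that direction and 3.36% in the other, 6.55% together. Taking same-numbered libraries as pairs, 10 of 18 cytosolic enzymes were lower in all 3 pairs and 2 (IARS1 and NARS1) were higher in all 3. The shares over all genes were 16.3% lower and 15.6% higher in all 3 pairs. Among the 10 were AARS1, GARS1, HARS1, LARS1, MARS1, TARS1, VARS1, WARS1 and YARS1, and the differences in single pairs ran down to -0.22 and were as small as -0.00049 for HARS1. Blocking on the replicate number gave 5 of the 18 an unadjusted p under 0.05 and 0 past adjustment, and over all genes 10.6% had an unadjusted p under 0.05.

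**Figure D2:**
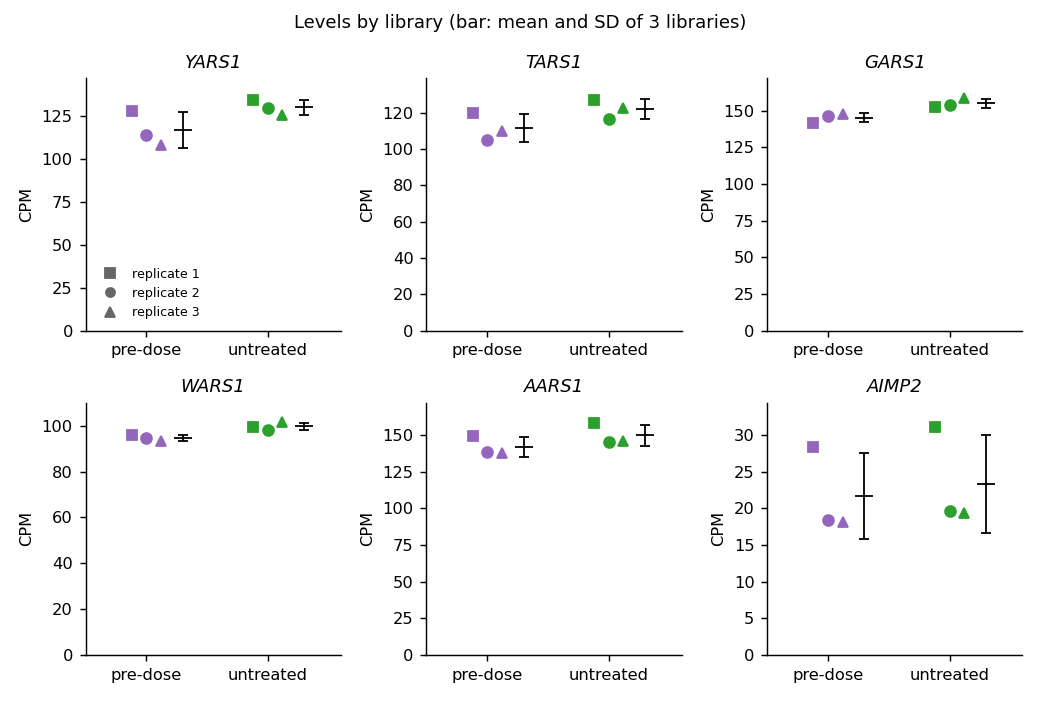
CPM of YARS1, TARS1, GARS1, WARS1, AARS1 and AIMP2 in each library (points, with the symbol giving the replicate number) and the mean with SD of the 3 libraries of a group (bars), pre-dose left of untreated, axes from 0. Pre-dose GARS1 lies at 142 to 148 CPM and untreated GARS1 at 153 to 158.5 CPM, while AIMP2 splits by replicate number, with replicate 1 highest in both groups.

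The remaining cytosolic enzymes lay between differences of -0.12 and 0.04. KARS1, the lysine enzyme of both compartments, had 123, 106 and 111 CPM in pre-dose libraries, against 117, 108 and 107 CPM in untreated libraries. The groups overlapped, and the difference was 0.03 with an interval of -0.14 to 0.21. QARS1, the glutamine enzyme, had the highest level per length of all members. It had 176, 184 and 188.5 CPM in pre-dose libraries, against 177, 179 and 178 CPM in untreated libraries, and its difference was 0.04 (interval -0.08 to 0.16). Pre-dose replicate 1 of QARS1 lay below all untreated libraries and pre-dose replicates 2 and 3 above them.

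Promoters of the members were searched for the core of the element that ATF4 binds together with C/EBP factors, spelled TGATGNAA and read on both strands. RefSeq promoters (GRCh38.p14, 250 bases before to 50 after each start) were matched for 31 of 38 members, and AARS2, LARS1, VARS1, VARS2 and YARS1 were among those not matched. The letters were found for 7 of 14 cytosolic enzymes, for 1 of 14 mitochondrial enzymes and for 0 of 3 scaffold genes. Among 10228 of the genes tested that had a promoter, 269 (2.63%) held them. The windows below are 30 bases on the gene's strand with the motif in capitals, shown because 6 of these 8 carry the same letters, TTGCATCA or its reverse complement TGATGCAA. Positions count the base before the start as -1.
AARS1 (chr16:70289675-70289704, minus strand, motif from -187): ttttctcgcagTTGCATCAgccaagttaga
CARS1 (chr11:3057407-3057436, minus strand, motif from -2): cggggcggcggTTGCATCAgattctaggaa
GARS1 (chr7:30594834-30594863, plus strand, motif from -33): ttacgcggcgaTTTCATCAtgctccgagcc
IARS1 (chr9:92293692-92293721, minus strand, motif from -13): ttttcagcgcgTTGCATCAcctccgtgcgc
MARS1 (chr12:57488053-57488082, plus strand, motif from -4): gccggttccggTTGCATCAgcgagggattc
NARS1 (chr18:57621804-57621833, minus strand, motif from 15): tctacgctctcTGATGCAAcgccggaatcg
TARS1 (chr5:33440956-33440985, plus strand, motif from 3): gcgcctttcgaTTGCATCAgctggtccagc
YARS2 (chr12:32756076-32756105, minus strand, motif from -197): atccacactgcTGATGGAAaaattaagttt

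In 5 of the 7 cytosolic promoters the match began within 15 bases of the annotated start (CARS1, IARS1, MARS1, NARS1 and TARS1). The 7 enzymes did not move as a block. Differences were -0.13 for TARS1, -0.12 for MARS1, -0.09 for GARS1 and -0.08 for AARS1, and 0.02 for CARS1, 0.03 for IARS1 and 0.02 for NARS1. Their median was -0.08, that of the 7 cytosolic enzymes with a promoter without the letters was -0.02, and genes tested that held the letters had a median of 0.0082. A match is a description of letters and not a site. MARS1, the methionine enzyme, was picked out after its values were seen. It had 147, 116.5 and 121 CPM in pre-dose replicates 1, 2 and 3, against 158.5, 129.5 and 131 CPM in untreated replicates 1, 2 and 3. Each pre-dose library was lower than its untreated partner by 0.11 to 0.15 on the log2 scale, while replicate 1 stood above the others in both groups.

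The mitochondrial enzymes, which charge tRNAs inside the organelle for its own ribosomes, had a median difference of 0.02, with 7 of 17 below 0. No member of this class had groups that did not overlap. PARS2, the proline enzyme, had 5.27, 4.66 and 4.35 CPM in pre-dose libraries, against 5.58, 5.07 and 4.96 CPM in untreated libraries. It was lower in all 3 pairs, with a difference of -0.11 and an interval of -0.34 to 0.12. MARS2, the methionine enzyme and the member with the lowest level per length, had 5.93, 4.19 and 4.31 CPM in pre-dose libraries, against 6.87, 4.39 and 4.86 CPM in untreated libraries. It was also lower in all 3 pairs, and the groups overlapped widely because replicate 1 was high in both. The difference was -0.13 with an interval of -0.54 to 0.29. EARS2, the glutamate enzyme, had 33.2, 33.6 and 31.4 CPM in pre-dose libraries, against 34.3, 30.4 and 29.04 CPM in untreated libraries. SARS2, the serine enzyme, had 20.1, 19.2 and 20.04 CPM in pre-dose libraries, against 20.5, 17.5 and 18.7 CPM in untreated libraries. Both were lower in pair 1 and higher in pairs 2 and 3, with differences of 0.07 and 0.06 and intervals of -0.12 to 0.25 for each. In the annotation used, 67.4% of SARS2 exon bases are shared with an overlapping model on the same strand and 15.8% with MRPS12 on the opposite strand.

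WARS2, the tryptophan enzyme, had 10.9, 10.3 and 10.2 CPM in pre-dose libraries, against 10.8, 8.70 and 10.4 CPM in untreated libraries. Its difference was the highest of the 38 members, 0.07, with an interval of -0.16 to 0.30, and it was -0.02 when untreated replicate 2, its lowest library, was left out. Exons of WARS2 share 117 bases, 4.1% of its exon length, with WARS2-AS1 on the opposite strand. WARS2-AS1 had 10.6 CPM in pre-dose and 9.13 CPM in untreated libraries, a difference of 0.19. HARS2 and HARS1, the mitochondrial and cytosolic histidine enzymes, are neighbours on chromosome 5 (140691426 to 140699318, plus strand, and 140673904 to 140691862, minus strand). Their exons overlap by 402 bases of HARS2 and 437 bases of HARS1, counted over all models of the neighbour. HARS2 had 25.4, 24.8 and 24.4 CPM in pre-dose libraries, against 25.9, 24.1 and 22.8 CPM in untreated libraries, and its difference was 0.04 (interval -0.13 to 0.20). HARS1 had 113, 101.3 and 101 CPM in pre-dose libraries, against 115.3, 101.3 and 103 CPM in untreated libraries, and its difference was -0.02 (interval -0.20 to 0.16).

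The median difference of the cytosolic class was lower than that of the mitochondrial class by 0.04 on the log2 scale, and this contrast was not the same in each pair. The cytosolic medians were -0.02, -0.05 and -0.04 in pairs 1, 2 and 3, and the mitochondrial medians -0.03, -0.01 and 0.02. The cytosolic minus mitochondrial value was therefore 0.01, -0.04 and -0.06 in the pairs. Leaving GARS1 and KARS1 out of the cytosolic class left its median at -0.02. The class mean of log2(CPM + 1) for the 18 cytosolic genes was 6.85 ± 0.04 in pre-dose and 6.89 ± 0.03 in untreated libraries, and for the 17 mitochondrial genes 4.51 ± 0.09 in pre-dose and 4.52 ± 0.10 in untreated libraries (SD, n = 3 each). These class values describe the members and carry no test.

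**Figure D3:**
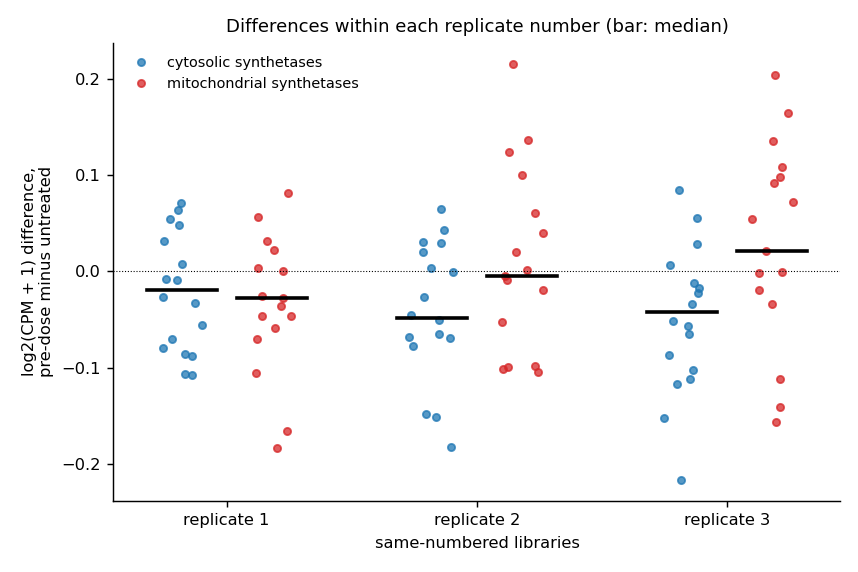
Difference in log2(CPM + 1), pre-dose minus untreated, within each replicate number (horizontal axis) for the cytosolic (blue) and mitochondrial (red) synthetases. Points are 17 cytosolic and 16 mitochondrial genes and bars are medians over all 18 and 17: the cytosolic median lies at -0.02, -0.05 and -0.04 and the mitochondrial median at -0.03, -0.01 and 0.02.

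For 14 amino acids both a cytosolic and a mitochondrial gene were among the members, and levels were compared per kilobase of exon. The cytosolic gene was the higher one for 13 of the 14, and the median ratio was 3.58 in pre-dose and 3.64 in untreated libraries. The widest gap was between MARS1 and MARS2, with a ratio of 27.9 ± 1.89 in pre-dose and 27.6 ± 3.38 in untreated libraries (SD, n = 3 each). Cysteine was the exception: the ratio of CARS1 to CARS2 was 0.385 ± 0.0730 in pre-dose and 0.382 ± 0.0848 in untreated libraries (SD, n = 3 each). CARS2 stood at 43.4 CPM per kilobase in pre-dose and 43.3 CPM per kilobase in untreated libraries, and CARS1 at 16.3 CPM per kilobase in pre-dose and 16.1 CPM per kilobase in untreated libraries. IARS2, the mitochondrial isoleucine enzyme, was the next highest of its class, at 28.8 CPM per kilobase in pre-dose and 29.3 CPM per kilobase in untreated libraries.

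The ratio was lower in the pre-dose mean for 9 of the 14 amino acids. Its pre-dose and untreated libraries overlapped for all but threonine, for which TARS1 to TARS2 was 2.93, 2.91 and 2.82 in pre-dose libraries, against 2.98, 2.99 and 3.46 in untreated libraries. Levels of single genes did not overlap for 6.55% of all genes tested, and no such share was worked out for ratios. One ratio without overlap among the 14 is therefore not read as a result about threonine. An exact permutation test of 3 libraries against 3 gives no two-sided p below 0.1, so that test could not pass a threshold of 0.05 for any of these 14 ratios, and no other test was run on them. At the ends of the order, QARS1 reached 63.3 CPM per kilobase in pre-dose and 61.5 CPM per kilobase in untreated libraries, and MARS2 1.59 CPM per kilobase in pre-dose and 1.78 CPM per kilobase in untreated libraries. SARS1, the cytosolic serine enzyme, came next below QARS1 at 61.5 CPM per kilobase in pre-dose and 60.4 CPM per kilobase in untreated libraries. Lengths are of all exons of the coding transcripts in the basic set of GENCODE release 29, so levels per length depend on which transcripts the cells use.

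**Figure D4:**
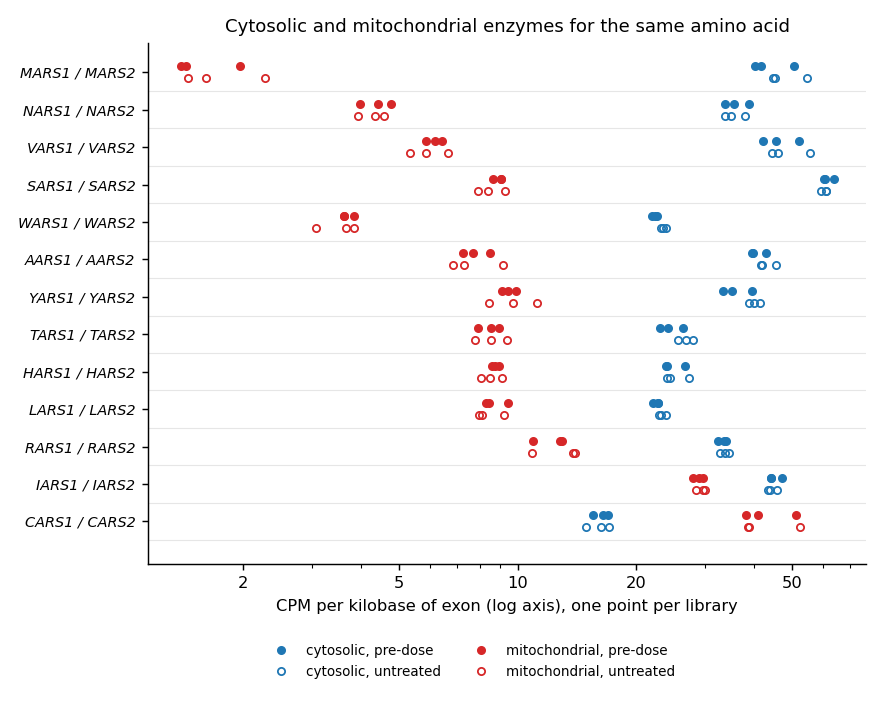
CPM per kilobase of exon (log axis) for the cytosolic (blue) and mitochondrial (red) gene of 13 amino acids, one point per library, with pre-dose libraries filled and above the open untreated ones. The MARS1 to MARS2 gap is the widest, and CARS2 lies above CARS1.

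The scaffold proteins hold the multi-synthetase complex together and have further roles in signalling. AIMP1 had 34.8, 35.2 and 38.4 CPM in pre-dose libraries, against 33.1, 35.6 and 35.9 CPM in untreated libraries, and its difference was 0.05 (interval -0.11 to 0.21). AIMP2, the central scaffold, had 28.4, 18.4 and 18.2 CPM in pre-dose replicates 1, 2 and 3, against 31.1, 19.7 and 19.3 CPM in untreated replicates 1, 2 and 3. It was lower in all 3 pairs, by 0.13, 0.09 and 0.08 on the log2 scale, and the split by replicate number was larger than any of these. In GENCODE, 38.7% of AIMP2 exon bases are shared with EIF2AK1 on the opposite strand, which encodes a haem-sensing kinase that, like GCN2, acts upstream of ATF4. EIF2AK1 had 118 CPM in pre-dose and 120.0 CPM in untreated libraries. EEF1E1 had 17.7, 13.1 and 15.3 CPM in pre-dose libraries, against 15.8, 15.4 and 15.3 CPM in untreated libraries. Pre-dose replicate 1 was its highest library and pre-dose replicate 2 its lowest, so the difference of -0.02 had an interval of -0.27 to 0.24.

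Complex members and free enzymes can be set side by side. The 11 genes of the complex (EPRS1, IARS1, LARS1, MARS1, QARS1, RARS1, KARS1 and the scaffold genes among them) had a median difference of -0.02, with 7 of 11 below 0 and 4 lower in all 3 pairs. The 10 cytosolic enzymes outside it had a median of -0.07, with 7 of 10 below 0 and 7 lower in all 3 pairs. Over all genes tested, 16.3% were lower in all 3 pairs. YARS1, TARS1, GARS1, AARS1 and WARS1, named above as the cytosolic enzymes with the smallest unadjusted p in the fit without a block, are all of the free kind. That ranking depends on the fit. MARS1, of the complex, had a difference of -0.12, lower than the -0.09 of GARS1. With the replicate block, MARS1 as 1 of 11 complex genes and 4 of 10 free enzymes had an unadjusted p under 0.05. WARS1 did not, and 10.6% of all genes did. No test was made of this contrast.

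The replicate 1 libraries differed from the others in many members by more than the treatment groups did. With the treatment in the model, 14 of 38 members were higher and 4 lower in replicate 1 (limma-trend, adjusted p under 0.05), where 20.3% of all genes were higher and 20.6% lower. AIMP2 had the largest offset, 0.63 with an interval of 0.51 to 0.75 (adjusted p = 5.19e-05), and EIF2AK1 had an offset of -0.0026. MARS2 (0.44, adjusted p = 0.00388), CARS2 (0.40, adjusted p = 1.13e-04) and MARS1 (0.29, adjusted p = 2.08e-04) followed. RARS2, the mitochondrial arginine enzyme, had the lowest offset, -0.28 (adjusted p = 0.00290), and EPRS1 and CARS1 were also lower in replicate 1. The median offset was 0.07 for cytosolic and 0.16 for mitochondrial enzymes, against -0.01 over all genes tested. The labels name no batch, and what sets replicate 1 apart was not tested.

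**Figure D5:**
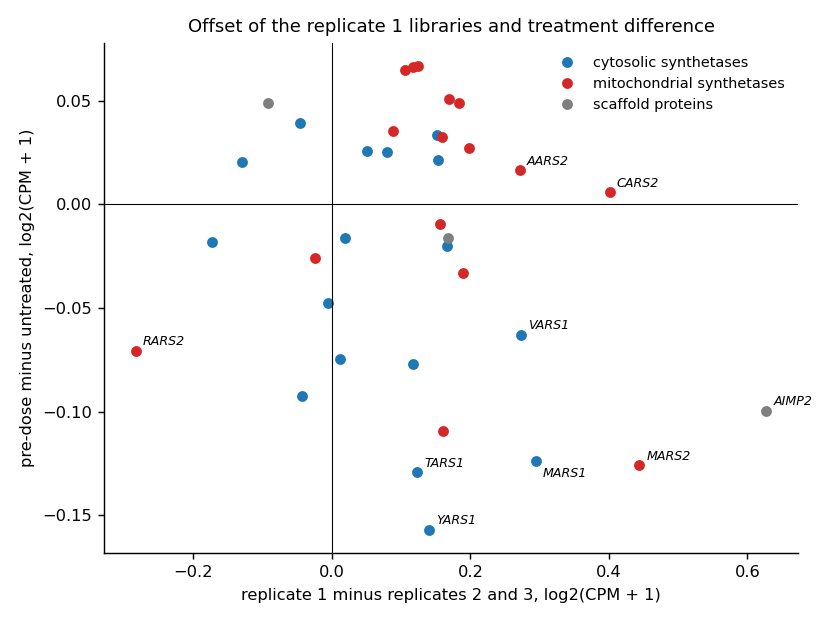
For 36 of the 38 members, the offset of the replicate 1 libraries (horizontal axis, log2(CPM + 1), replicate 1 minus replicates 2 and 3) and the pre-dose minus untreated difference (vertical axis, same scale), by class. Offsets run from -0.28 (RARS2) to 0.63 (AIMP2), while treatment differences stay between -0.16 and 0.07.

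Neighbouring genes of the pathway also gave no call in limma-trend. Of 5 other synthetase genes, 0 passed and 0 had an unadjusted p under 0.05. SEPSECS, which makes selenocysteine on its tRNA, had 6.12 ± 1.03 CPM in pre-dose and 4.84 ± 0.416 CPM in untreated libraries (SD, n = 3 each), higher by 0.28 on the log2 scale (interval -0.03 to 0.58) and not past the test. TARS3, a further threonine enzyme, had 9.38 ± 0.181 CPM in pre-dose and 8.14 ± 0.665 CPM in untreated libraries (SD, n = 3 each), a difference of 0.19. It was higher in all 3 pairs, where TARS1 was lower in all 3. FARSA and FARSB differed by -0.03 and -0.05. The counts past the threshold were likewise 0 of 4 accessories of mitochondrial charging, 0 of 4 trans-editing genes, 0 of 8 genes of tRNA export and processing, 0 of 6 cytosolic elongation factors and 0 of 4 mitochondrial ones. LAGE3, a subunit of the complex that makes a modified adenosine in tRNA, was the only member of those lists with an unadjusted p under 0.05. Over all genes tested, 2.06% had one. LAGE3 had 8.70, 8.11 and 8.71 CPM in pre-dose libraries, against 9.96, 9.59 and 11.3 CPM in untreated libraries. The difference was -0.25 (adjusted p = 1.00, limma-trend), and the groups did not overlap, as was so for 6.55% of all genes tested. XPOT, which exports tRNA from the nucleus, differed by -0.07. Differences were 0.08 for EEF2 and 0.06 for EEF1A1, which move the ribosome and deliver tRNA to it, and 0.05 for GFM1, the mitochondrial translocation factor, and -0.05 for GFM2, which recycles mitochondrial ribosomes. Among the accessories, GATC, a subunit of the amidotransferase that makes glutaminyl-tRNA, differed by 0.05, and MTFMT, which formylates the initiator tRNA, by -0.05. Of the trans-editing genes, the pseudogene PRORSD1P differed by 0.10 and DTD1 by 0.03.

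In the amino acid response list, 0 of 27 genes passed in limma-trend and 3 had an unadjusted p under 0.05, against 2.06% of all genes tested. In the authors' deposited table, ATF4 and PYCR1 were past an adjusted p of 0.05 as lower and SESN2 as higher, 3 of the 27 in all, where 1.45% of all genes were lower and 1.61% higher. ATF4 had 186, 164 and 170.1 CPM in pre-dose libraries, against 197, 189.9 and 192.5 CPM in untreated libraries, and its groups did not overlap. PYCR1, a proline synthesis enzyme, had 56.9, 57.7 and 60.3 CPM in pre-dose libraries, against 63.2, 66.5 and 69.9 CPM in untreated libraries, again with no overlap. SESN2, a sensor of leucine that p53 also induces, had 11.8, 20.3 and 17.6 CPM in pre-dose libraries, against 11.1, 11.7 and 12.5 CPM in untreated libraries, and pre-dose replicate 1 lay within the untreated range. ASNS, the asparagine synthetase enzyme and a standard ATF4 target, had 7.31, 4.59 and 5.64 CPM in pre-dose libraries, against 7.19, 8.37 and 6.76 CPM in untreated libraries. On replicates 2 and 3 alone, 5 of the 27 fell (ATF4, ASNS, PYCR1 and the amino acid transporter genes SLC7A5 and SLC7A1) and SESN2 rose, where 3.47% of all genes fell and 2.89% rose. SLC7A5 and SLC7A1 carried replicate 1 offsets of 0.78 and 0.45. The list's median difference was -0.03, with 19 of 27 below 0. Promoters of 22 of these genes were matched, and 6 held TGATGNAA (ASNS, CEBPG, CHAC1, SLC1A5, SLC3A2 and SLC7A1), a share of 27.3%.

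The p53 targets kept as a check had a median difference of 0.51 over 8 genes, and medians of 0.30, 0.66 and 0.57 in pairs 1, 2 and 3. In limma-trend 0 were called and 5 had an unadjusted p under 0.05, against 2.06% of all genes tested. The threshold was passed as higher by 6 of the 8 in the authors' deposited table, CDKN1A, MDM2, FDXR, ZMAT3, BBC3 and BAX. There 1.61% of all genes were higher. FDXR, a mitochondrial reductase, had 18.3, 32.0 and 27.9 CPM in pre-dose libraries, against 13.6, 14.8 and 14.8 CPM in untreated libraries, and its difference was 0.78 (interval 0.34 to 1.21). That difference is outside the range of -0.16 to 0.07 that held the differences of the 38 synthetase and scaffold genes. Its interval still overlaps those of AIMP2 and CARS2, which reached 0.43 and 0.36.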

How the data were processed

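Paired 150-base reads were taken from poly-A RNA, per the labels' protocols, and the authors deposited expression as log2 CPM with 13773 rows. The 77 rows that repeated a gene were dropped. Per the submitters' processing notes, bcl2fastq, DRAGEN, edgeR, limma and hg38 were used, without versions or roles, and no source used here gives the gene filter or the strand setting. The lowest value of each column was read as a count of 0 with 0.5 added, which gave the implied totals. At those totals 3 counts correspond to 0.0944 to 0.114 CPM, a limit for counting error only. The authors also deposited their comparison, per the file headers, with log2 fold changes, p-values and adjusted p-values, and a moderated statistic (a score). Its sign, untreated minus pre-dose, was turned here.

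Values were returned to CPM and fitted with limma-trend on log2(CPM + 1), pseudocount 1 CPM, without a block, over the 13616 genes averaging 1 CPM or more (R 4.3.3, limma 3.58.1, Python 3.11.15, pandas 2.3.3, matplotlib 3.10.9). P-values are two-sided and Benjamini-Hochberg adjusted over all genes. The edgeR test planned for raw counts was not used, because the values were normalized. The fit was tested on simulated data. Alternatives were another scaling, pseudocount, filter and test, the replicate block, replicates 2 and 3 alone, the replicate 1 pair, and leaving out each library.

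The groups share replicate numbers. Deviations of same-numbered libraries from their group means correlated across genes at 0.66, 0.45 and 0.18 for replicates 1, 2 and 3. The numbers were treated as pairing the libraries in the values by pair and in the replicate block only. The main fit, with its intervals and p-values, did not use them. The labels do not state a pairing. Untreated replicate 3 with pre-dose replicate 2 reached 0.51, and untreated replicate 2 with pre-dose replicate 3 reached 0.28. For replicates 2 and 3 these correlations thus do not favour the same numbers over a swap, and values by pair depend on that choice.

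Members and lists were chosen with earlier results of these data known. Values in every library were given for members past a threshold, the 5 cytosolic and 5 mitochondrial members with the smallest unadjusted p, the scaffold genes, GARS1, KARS1, both histidine and both tryptophan enzymes, and the members highest and lowest per length. Some results that this rule selects are not reported here, although all 38 members enter the counts and medians. Of each pathway list, genes past a threshold in either comparison were named, otherwise the 2 with the smallest p, with FARSA, FARSB and ASNS added. Positions, lengths and overlaps came from GENCODE release 29 (GRCh38), in which 13630 gene identifiers were found, and may differ from the authors' annotation.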

Additional observations from a re-analysis of the deposited data

How the results depend on the processing

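Calls depended on the libraries used, among the members and over all genes. Replicates 2 and 3 alone called 2 of 38 members, YARS1 among them, where 866 of the 13616 genes tested (6.36%) were called. They also called 6 of the amino acid response list and 8 of the p53 targets. Voom with library quality weights called 0 members, 108 of all genes (0.793%), 1 gene of the amino acid response list and 5 p53 targets. The replicate block, whose cytosolic, mitochondrial and contrast medians were -0.0236, 0.0165 and -0.0401, changed no call: it called 0 members and 0 genes of all. The other scaling, pseudocounts, filters, plain voom and each left-out library also called 0 members. The mitochondrial median was 0.0426 with quality weights and -0.0277 in the replicate 1 pair, where the cytosolic minus mitochondrial value was 0.00826. Leaving out single libraries moved the cytosolic median between -0.044 and -0.0231, the mitochondrial median between -0.0297 and 0.08, and the contrast between -0.11 and -0.00318, with the ends of the mitochondrial range reached without pre-dose replicate 1 and without untreated replicate 1. It also turned the sign of 7 of the 18 genes followed through the alternatives, whose ranges were -0.259 to 0.0365 for MARS2, -0.302 to 0.116 for AIMP2, -0.116 to 0.0854 for EEF1E1, -0.0267 to 0.0805 for KARS1, -0.074 to 0.0368 for HARS1, -0.00592 to 0.08 for HARS2 and -0.0199 to 0.124 for WARS2. YARS1 ranged from -0.225 to -0.102, and no left-out library brought it past the threshold. These fits had no block, so dropping 1 of the replicate 1 libraries leaves the other's offset in the difference. The intervals given are also those of the fit without the block, which counts the replicate 1 offset as spread within groups: that of AIMP2 was -0.63 to 0.43, while its differences within pairs were -0.13, -0.09 and -0.08.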
